A study of Mus musculus with 6 samples.

Results

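Axon guidance ligands and receptors were followed across ribosome-bound and whole-tissue RNA of mouse cerebral cortex. The set holds every listed gene symbol of the semaphorin classes 3 to 7, the plexins, neuropilins, ephrins, Eph receptors, Slits, Robos, netrins, netrin-Gs, the UNC5 receptors and Dcc. Members were taken by name, and the set was chosen with earlier results of these data known. It comprises 71 of the 32531 gene symbols in the files, of which 37 are ligands and 34 are receptors.

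The study used TRAP-seq (translating ribosome affinity purification with sequencing of the RNA), in which an EGFP-tagged ribosomal protein is pulled down together with the messenger RNA being read. All libraries came from untreated adult Htr4-EGFP/Rpl10a (ES1299) mice, in which the serotonin receptor gene Htr4 drives the tagged Rpl10a. The 3 IP libraries hold RNA bound to tagged ribosomes, recovered on beads that carry anti-EGFP antibodies, and the 3 input libraries hold RNA labelled as input from the same tissue and line. Both groups carry the transgene, the line is a single one, and neither an exact age nor a separate animal for each library is given, so p-values measure only the spread between these libraries, which may be technical.

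Guidance molecules steer growing axons and, in the adult brain, act at synapses and at contacts between neurons, glia and vessels. Semaphorins signal through plexins, with neuropilins as co-receptors for most secreted class 3 semaphorins, and ephrins signal through Eph receptor tyrosine kinases and back into the cell that bears them. Slits repel axons through Robos, netrins attract through DCC and repel through UNC5 receptors, and the GPI-anchored netrin-Gs bind the NGL proteins of the facing synaptic membrane.

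Gene reads numbered 53147173 to 67559533 in IP libraries and 37696125 to 52360452 in input libraries, so that 3 reads corresponded to between 0.0444 and 0.0796 CPM before TMM scaling (CPM, reads per unit of the library's total). The driver gene Htr4 stood at 19.9 ± 2.36 CPM in IP and 7.88 ± 0.265 CPM in input (SD, n = 3 each; log2 fold change 1.34), while Rpl10a, which has many near-identical pseudogenes, did not pass the test (log2 fold change -1.16, adjusted p = 0.0657). Rpl10a was called lower in 4 of the 15 alternative settings described below, and its change lay between -1.38 and -0.90 over all of them. All 10 astrocyte, all 10 oligodendrocyte, all 6 oligodendrocyte precursor and all 10 microglial marker genes were lower in IP, and their summed levels were 822 to 1008, 163 to 185, 7.25 to 9.42 and 4.93 to 6.75 CPM in IP, against 3954 to 4553, 1411 to 1542, 93.1 to 97.3 and 59.5 to 62.9 CPM in input. Of the neuronal lists, all 8 layer 5 pyramidal tract markers were higher in IP, 5 of 8 layer 4 and layer 2/3 markers were lower, 6 of 12 interneuron markers were higher and none lower, 3 of 10 general excitatory markers were higher and 1 lower, and 7 of 8 striatal projection neuron markers were higher and 1 lower. The striatal list summed to 793 to 1109 CPM in IP and 278 to 345 CPM in input, although the labelled tissue is cortex. How far these marker differences bear on any guidance gene was not tested. For a gene lower in IP, fewer tagged cells of a type and less RNA on tagged ribosomes per cell cannot be told apart.

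Under TMM scaling, more guidance genes were called lower than higher in ribosome-bound RNA, as was so over all genes tested. Of the 71 members, 67 had enough reads to be tested, and in edgeR's quasi-likelihood test with Benjamini-Hochberg adjustment over all 16506 genes tested (threshold 0.05) 9 were higher in IP, 19 were lower and 39 did not pass. The higher share, 13.4% of tested members, stood beside 21.3% of all genes tested, and the lower share, 28.4%, stood beside 23.4%. At a change of at least 2-fold, 1 of the 67 tested members was higher, against 730 of 16506 genes (4.42%). At that change 6 of the 67 were lower, against 2536 of 16506 genes (15.4%). Both were smaller shares than over all genes. The median log2 fold change was -0.06 over tested members and -0.02 over all genes tested. All 3 IP libraries lay above all 3 input libraries for 18 of the 67 members, against 4381 of 16506 genes (26.5%). They lay below them for 23 of the 67, against 4871 of 16506 genes (29.5%), and the groups overlapped for 26 members. Every one of the 28 called members had the sign of its change in all 3 pairs of libraries that share a replicate number, as did 7368 of the 7387 called genes of the whole transcriptome.

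The split between higher and lower calls depended on how the libraries were scaled. With an offset for exon length and GC content, 17 members were higher and 11 lower (60.7% of calls higher, against 32.1% with the TMM scaling used throughout), and with scaling to total gene counts alone 14 were higher and 16 lower. The calls over all genes turned the same way, with 23.6% higher and 20.9% lower under the offset, and 25.8% higher and 20.8% lower under total gene counts. The offset moved the median log2 fold change of all genes by 0.04 and the total-count scaling moved it by 0.09. With the replicate number as a block, 10 were higher and 20 lower, with Epha6 and Robo2 as the added calls, beside 21.9% higher and 24.0% lower of all genes.

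**Figure D1:**
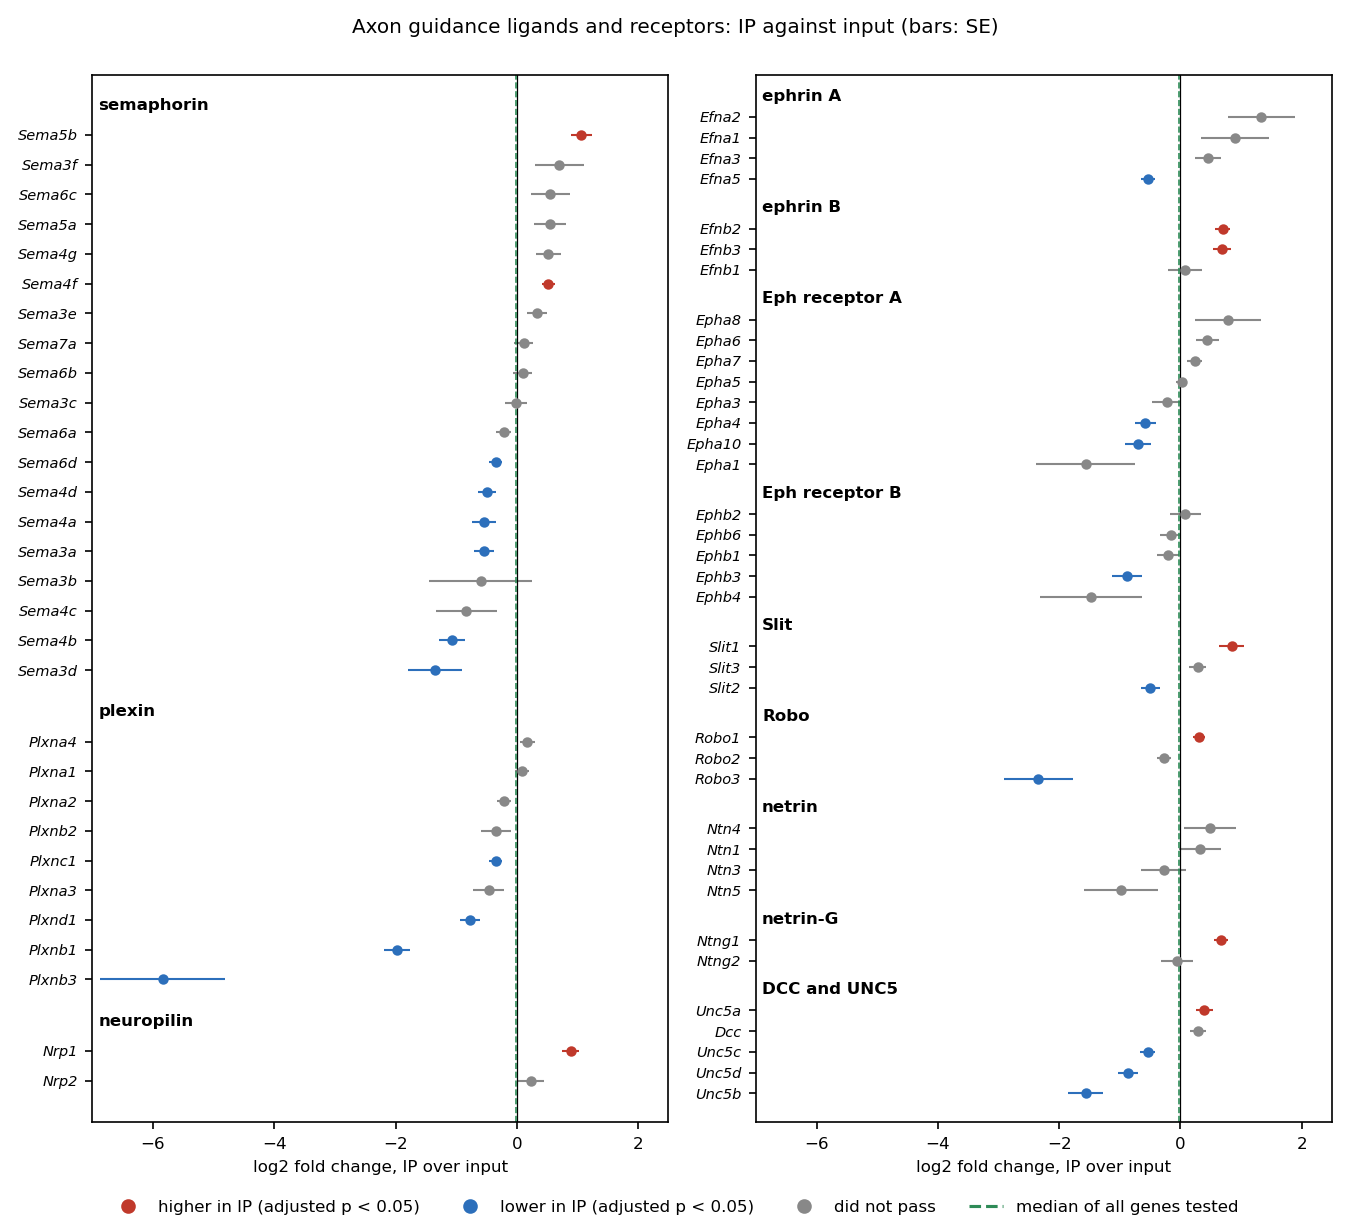
Log2 fold change (IP over input, horizontal axis) of each tested guidance gene, grouped by family, with SE bars; colours mark genes higher in IP, lower in IP or not past the test. Plxnb3 lies farthest to the left at -5.84 and the called genes farthest to the right are Sema5b at 1.06 and Nrp1 at 0.89.

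Among the ligands, 6 of 35 tested genes were higher in IP (Sema5b, Slit1, Efnb2, Efnb3, Ntng1 and Sema4f), 8 were lower, and the median log2 fold change was 0.11. Among the receptors, 3 of 32 were higher (Nrp1, Unc5a and Robo1), 11 were lower, and the median was -0.25. With the length and GC offset the counts were 9 higher and 3 lower for ligands, and 8 higher and 8 lower for receptors. The difference between ligands and receptors was not tested.

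The semaphorins, a family of secreted and membrane-bound ligands, were split: 2 of 19 tested genes were higher in IP, 6 were lower and 11 did not pass. Sema5b, a transmembrane class 5 semaphorin known to inhibit axon growth (chromosome 16, 35541145 to 35664732, + strand, mm10), was the member with the largest called rise. It had 26.8, 22.6 and 35.1 CPM in the 3 IP libraries, against 14.1, 13.1 and 13.4 CPM in the 3 input libraries. The lowest IP library exceeded the highest input library, and Sema5b was 1.06 ± 0.17 higher on the log2 scale (SE; adjusted p = 0.000441). Sema4f, a transmembrane class 4 semaphorin found at glutamatergic synapses, had 62.3, 57.9 and 60.4 CPM in IP, against 39.5, 40.9 and 45.5 CPM in input. Again the groups did not overlap (log2 fold change 0.52, SE 0.11, adjusted p = 0.00185).

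The lower semaphorins were Sema3a, Sema3d, Sema4a, Sema4b, Sema4d and Sema6d. Sema4b, a transmembrane ligand of the same class as Sema4f, had 4.95, 6.16 and 6.15 CPM in IP, against 10.02, 11.1 and 15.04 CPM in input, without overlap between the groups (log2 fold change -1.07, SE 0.21, adjusted p = 0.00174). It was the only one of the 6 whose call held in every alternative setting tried. Sema3d, a secreted ligand, had 1.35, 2.31 and 0.732 CPM in IP and 4.77, 3.22 and 3.19 CPM in input. Its change was -1.35 on the log2 scale (SE 0.45, adjusted p = 0.0286), and the call was lost when any library but IP replicate 2 was left out, with adjusted p between 0.0543 and 0.133. It was also lost with the offset (-1.04, adjusted p = 0.0793) and with the offset and replicate block (-1.16, adjusted p = 0.0511). Sema3a, the classic collapsing factor for growth cones, averaged 29.6 ± 7.53 CPM in IP and 43.1 ± 1.93 CPM in input (log2 fold change -0.54, adjusted p = 0.0203). Its call was lost without IP replicate 2 (-0.36, adjusted p = 0.0524), input replicate 1 (-0.51, adjusted p = 0.0652) or input replicate 3 (-0.51, adjusted p = 0.0688), and with the offset the change was -0.08.

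Sema4d, known as a product of oligodendrocytes that acts on plexin B1, averaged 21.8 ± 2.18 CPM in IP and 30.6 ± 4.53 CPM in input (log2 fold change -0.49, adjusted p = 0.0172). Its call was lost without IP replicate 1, input replicate 2 or input replicate 3, at adjusted p = 0.0514 to 0.0958, with the offset (-0.33) and with the offset and replicate block (-0.33). Oligodendrocyte markers were lower in the same libraries, at the summed levels given above, and their part in the Sema4d difference was not tested. Sema4a averaged 10.3 ± 2.24 CPM in IP and 14.9 ± 1.10 CPM in input (adjusted p = 0.0391). That call was lost without IP replicate 2 or any 1 input library, at adjusted p = 0.0667 to 0.129, and with total gene counts (-0.44). Sema6d, a transmembrane ligand of class A plexins, averaged 87.3 ± 8.52 CPM in IP and 111 ± 10.5 CPM in input (log2 fold change -0.35, adjusted p = 0.0204), a difference of -0.04 with the offset and -0.25 with total gene counts, neither of which passed, and its call was lost without IP replicate 1, input replicate 2 or input replicate 3 (adjusted p = 0.0580 to 0.109).

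Sema5a, a known ligand of plexin B3, had 90.9, 201 and 80.9 CPM in IP, against 80.04, 79.4 and 95.6 CPM in input. A single library, IP replicate 2, stood far above the other 5, the groups overlapped, and the change of 0.55 did not pass (adjusted p = 0.120). Without IP replicate 2 the change was 0.02, and without IP replicate 1 or 3 it was 0.74 or 0.79 and passed. Sema5a was also called higher with no filter on low counts, with the length and GC offset (1.08) and with the offset and replicate block (0.96). The other semaphorins that did not pass were Sema3b, Sema3c, Sema3e, Sema3f, Sema4c, Sema4g, Sema6a, Sema6b, Sema6c and Sema7a, with log2 fold changes between -0.83 (Sema4c) and 0.70 (Sema3f). Of these, Sema4g (log2 fold change 0.52) was called higher in 7 of 15 alternative settings and Sema3e (0.33) in 3 of 15, both with the offset among them. Sema4c was called lower without IP replicate 3. Sema3g, the 20th semaphorin, had 5 reads over the 3 IP libraries and 0 over the 3 input libraries and was not tested.

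Among the ephrins, 2 of the 3 B-class ligands were higher in IP, and 1 of the 4 tested A-class ligands, the one with the highest CPM per kilobase of exon, was lower. Efnb2 encodes ephrin-B2, a transmembrane ligand that also signals in reverse and is known from synapses and arterial endothelium (chromosome 8, 8617434 to 8661242, - strand). It had 114, 80.5 and 89.4 CPM in IP, against 57.3, 57.3 and 60.8 CPM in input. The groups did not overlap, and the change was 0.70 ± 0.13 (SE, log2 scale; adjusted p = 0.000942). Endothelial markers summed to 3.53 to 3.91 CPM in IP and 8.31 to 14.9 CPM in input, 5 of the 8 tested were lower, and Tek was at 0 reads in IP; their part in the Efnb2 difference was not tested. Efnb3 encodes ephrin-B3, known as a midline barrier to corticospinal axons and a postsynaptic ligand. It had 74.9, 67.5 and 57.2 CPM in IP, against 48.6, 41.2 and 33.9 CPM in input, with no overlap (log2 fold change 0.69, SE 0.15, adjusted p = 0.00242). Efnb1, the third ephrin-B, averaged 6.44 ± 2.41 CPM in IP and 6.11 ± 1.16 CPM in input and did not pass (adjusted p = 0.856).

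Efna5 encodes ephrin-A5, a GPI-anchored ligand known for cortical and thalamocortical mapping. It had 67.0, 75.3 and 87.6 CPM in IP, against 99.7, 110 and 124 CPM in input. All 3 IP libraries lay below all 3 input libraries (log2 fold change -0.54, SE 0.12, adjusted p = 0.00334). Efna1, Efna2 and Efna3 did not pass, with log2 fold changes of 0.89, 1.33 and 0.45. Efna2 had 1.87, 10.2 and 2.58 CPM in IP, against 1.797, 1.65 and 2.35 CPM in input, so its fitted value rested on IP replicate 2, and without that library the change was 0.21. Efna2 was called higher without IP replicate 1 or 3, with no filter on low counts and by DESeq2. Efna4 had 27 reads over the IP libraries, 26 of them in replicate 1, and 19 over the input libraries, and was not tested.

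The 3 Slits, secreted ligands of the Robos, had 3 different outcomes. Slit1, known from neurons of the brain, had 13.3, 21.3 and 18.6 CPM in IP, against 11.2, 10.3 and 8.13 CPM in input, with no overlap (log2 fold change 0.84, SE 0.21, adjusted p = 0.00574). Slit2 had 21.6, 23.7 and 19.1 CPM in IP, against 28.7, 25.95 and 36.2 CPM in input, and was lower by the test (log2 fold change -0.50, adjusted p = 0.0210), but the sign turned to 0.19 with the length and GC offset. The Slit2 call was also lost without IP replicate 3 (-0.41, adjusted p = 0.0636) or input replicate 3 (-0.33, adjusted p = 0.133). Slit3, the Slit with the highest CPM per kilobase of exon, averaged 31.4 ± 4.09 CPM in IP and 25.8 ± 1.47 CPM in input and did not pass (log2 fold change 0.28, adjusted p = 0.108), although the groups did not overlap.

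None of the 4 classical netrins passed edgeR's test in either direction, 0 had an unadjusted p under 0.05, and DESeq2 and limma-voom called 0 as well. Ntn1, the founding chemoattractant, had 5.69, 4.40 and 2.56 CPM in IP, against 2.89, 4.17 and 3.01 CPM in input, and the groups overlapped. Ntn3, Ntn4 and Ntn5 averaged 0.506 to 2.66 CPM in IP and 0.997 to 3.22 CPM in input. The netrin-G Ntng1, which binds NGL-1 (Lrrc4c) and is known from thalamocortical and other long-range axons, lies on chromosome 3 (109780040 to 110144011, - strand). It had 95.5, 93.6 and 81.9 CPM in IP, against 64.7, 54.5 and 51.9 CPM in input. The groups did not overlap, and Ntng1 was 0.66 ± 0.11 higher in IP (SE, log2 scale; adjusted p = 0.000621). Its paralog Ntng2, which binds NGL-2 (Lrrc4), averaged 11.9 ± 5.08 CPM in IP and 12.3 ± 1.36 CPM in input and did not pass (adjusted p = 0.882).

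Of the receptors for semaphorins, neuropilin 1 was higher in IP, and no plexin was under TMM scaling (0 also at an unadjusted p under 0.05 and by DESeq2 or limma-voom). Nrp1, the co-receptor for Sema3a and for VEGF (chromosome 8, 128358604 to 128503363, + strand), had 41.3, 55.4 and 42.0 CPM in IP, against 25.8, 23.8 and 25.4 CPM in input. The lowest IP library was well above the highest input library, and the change was 0.89 ± 0.14 (SE, log2 scale; adjusted p = 0.000330). Its ligand Sema3a was lower in the same comparison, as given above. Nrp2, the co-receptor for Sema3f, had 53.4, 49.6 and 26.4 CPM in IP, against 37.9, 41.4 and 30.9 CPM in input, and did not pass (log2 fold change 0.23, adjusted p = 0.424). Without IP replicate 3, the low one, Nrp2 passed at 0.50 (adjusted p = 0.0147).

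Of the 9 plexins, the transmembrane receptors of semaphorins, 4 were lower in IP and 5 did not pass. The lower ones were Plxnb3, Plxnb1, Plxnd1 and Plxnc1, so that the B, C and D classes held the calls and the 4 class A plexins held none. Plxnb3 (chromosome X, 73757090 to 73772514, + strand), known in brain mainly from oligodendrocytes, had 9, 0 and 0 reads in the IP libraries, against 110, 123 and 169 reads in the input libraries. As a share of gene reads it was 59.7-fold lower in IP, with a 95% counting interval of 31.1 to 132, and the test passed (log2 fold change -5.84, adjusted p = 0.000765). The fitted fold change of a gene so close to 0 reads depends on the prior count. The 10 oligodendrocyte markers were lower with it, with a median log2 fold change of -3.68, and their part in the Plxnb3 difference was not tested.

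Plxnb1, the receptor for Sema4d (chromosome 9, 109095389 to 109119917, + strand), had 6.80, 3.97 and 5.18 CPM in IP, against 20.04, 23.6 and 19.1 CPM in input. The groups did not overlap, and the change of -1.98 ± 0.21 had the smallest adjusted p of the members (SE, log2 scale; adjusted p = 2.38e-05). Plxnd1, the receptor for Sema3e and known from endothelium and from neurons, had 15.5, 12.1 and 11.2 CPM in IP, against 21.5, 23.1 and 21.6 CPM in input (log2 fold change -0.77, SE 0.16, adjusted p = 0.00229). Its ligand Sema3e averaged 38.7 ± 9.52 CPM in IP and 30.7 ± 2.77 CPM in input and did not pass (adjusted p = 0.139). Plxnc1, the receptor for Sema7a, averaged 80.02 ± 10.1 CPM in IP and 102 ± 7.66 CPM in input (log2 fold change -0.35, adjusted p = 0.0223). The Plxnc1 change was -0.12 with the offset and -0.25 with total gene counts, neither of which passed, and the call was lost without IP replicate 2, IP replicate 3 or input replicate 3 (adjusted p = 0.0622 to 0.105). Sema7a itself averaged 79.0 ± 18.1 CPM in IP and 73.2 ± 6.37 CPM in input, with overlapping groups (adjusted p = 0.585).

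Plxna4, the plexin with the highest CPM per kilobase of exon and a signalling partner of Nrp1, had 173, 242 and 188 CPM in IP, against 160, 189 and 186 CPM in input, and did not pass (log2 fold change 0.17, adjusted p = 0.294). Plxna1, Plxna2, Plxna3 and Plxnb2 also did not pass, at 0.09, -0.21, -0.47 and -0.35. With the length and GC offset, Plxna4 and Plxna2 were called higher, at 0.55 and 0.27, which turned the sign of Plxna2. Without input replicate 1 and with no offset, Plxna2 was called lower, so the direction of its call depended on the setting.

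In edgeR's test as described above, no Eph receptor was higher in IP, and 3 of the 13 tested were lower. Of the 13, 1 was higher at an unadjusted p under 0.05 (Epha6) and 0 were higher by DESeq2 or limma-voom. Epha6 was called higher in 7 of 15 alternative settings. Under TMM scaling without the offset these were the replicate block (0.42, adjusted p = 0.0107), no filter on low counts, and leaving out IP replicate 1 or 3. Epha4, an Eph receptor that binds ephrins of both classes and is known for corticospinal guidance, had the highest CPM per kilobase of exon among them, with 110, 188 and 110 CPM in IP, against 195, 215 and 199 CPM in input. The groups did not overlap, but IP replicate 2 lay close to the input libraries, and the change of -0.58 (SE 0.18, adjusted p = 0.0190) became -0.88 without it. Leaving out any other library ended the call, at adjusted p = 0.0612 to 0.0775, and the offset gave -0.33. Epha10, a kinase-dead Eph receptor, had 7.73, 10.2 and 9.70 CPM in IP, against 10.8, 15.3 and 18.5 CPM in input (log2 fold change -0.69, SE 0.22, adjusted p = 0.0206). The Epha10 call was lost without IP replicate 1 (-0.57, adjusted p = 0.0637), input replicate 2 (-0.68, adjusted p = 0.0687) or input replicate 3 (-0.49, adjusted p = 0.128).

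Ephb3, a receptor of ephrin-B ligands, had 3.86, 5.18 and 3.30 CPM in IP, against 6.59, 8.41 and 7.80 CPM in input, without overlap (log2 fold change -0.89, SE 0.25, adjusted p = 0.0123). That call was lost without input replicate 2 (adjusted p = 0.0632) or input replicate 3 (adjusted p = 0.0501). Ephb1, the B-class receptor with the highest mean CPM, uncorrected for length, averaged 20.7 ± 3.56 CPM in IP and 23.9 ± 4.87 CPM in input and did not pass (adjusted p = 0.373). The receptors Ephb1, Ephb2, Ephb4 and Ephb6 thus did not pass while 2 of their 3 ligands, Efnb2 and Efnb3, were higher. Epha5, Epha6 and Epha7, receptors of ephrin-A ligands, averaged 102 ± 7.61, 50.1 ± 14.0 and 116 ± 20.4 CPM in IP, against 101 ± 4.09, 36.8 ± 5.84 and 98.5 ± 8.22 CPM in input, and did not pass. With the offset, all of Epha5, Epha6 and Epha7 were called higher. Epha2, known from epithelia and endothelium, had 0 reads in IP and 3, 2 and 16 reads in the 3 input libraries, at least 9.36-fold lower when 3 reads in the whole IP group are taken as the limit, and it was not tested. Leaving out a library, a check added after the values were seen, took this limit to 3.55-fold without input replicate 3, 5.99-fold without IP replicate 2 and 6.01-fold without IP replicate 3.

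The Robos, the Slit receptors, went in different directions. Robo1 had 64.1, 61.0 and 56.5 CPM in IP, against 47.8, 47.1 and 52.1 CPM in input, and was higher by a small margin (log2 fold change 0.31, SE 0.10, adjusted p = 0.0318). The Robo1 call was lost without IP replicate 1, IP replicate 2, input replicate 1 or input replicate 2, at adjusted p = 0.0594 to 0.128, and with the filter of 1 CPM in 3 libraries (0.26), while the offset gave 0.76 with a call. Robo2, the Robo with the highest CPM per kilobase of exon, had 94.9, 89.5 and 118 CPM in IP, against 115, 116 and 134 CPM in input, with overlap (log2 fold change -0.27, adjusted p = 0.0821). Robo2 was called lower with the replicate block (-0.28), with the filter of 1 CPM in 3 libraries and without IP replicate 3. Its sign turned to 0.26 with the offset, without a call. With the offset and replicate block Robo2 was called higher (0.25, adjusted p = 0.0414), so the direction of its call depended on the setting. Robo3, which in mammals does not bind Slits and is known from commissural axons (chromosome 9, 37415669 to 37433246, - strand), had 0.197, 1.18 and 0.718 CPM in IP, against 4.003, 3.88 and 2.82 CPM in input. The groups were far apart at these low levels (log2 fold change -2.34, SE 0.57, adjusted p = 0.00534). Robo4, the endothelial Robo, had 0 reads in IP and 0, 14 and 46 reads in the 3 input libraries, at least 26.7-fold lower by the same limit, and it was not tested. That limit was 9.94-fold without input replicate 3, 17.1-fold without IP replicate 2 and 17.2-fold without IP replicate 3. The endothelial markers given above were lower as well, and their part was not tested.

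Of the 5 netrin receptors, Unc5a was higher, Unc5b, Unc5c and Unc5d were lower and Dcc did not pass. Unc5a, a repulsive netrin receptor of neurons, had 47.4, 55.1 and 52.1 CPM in IP, against 31.7, 40.9 and 45.1 CPM in input (log2 fold change 0.39, SE 0.14, adjusted p = 0.0364). The Unc5a groups did not overlap, but the call was lost without IP replicate 2, IP replicate 3, input replicate 1 or input replicate 2, at adjusted p = 0.0601 to 0.109. It was lost as well with the offset (0.25), the offset and replicate block (0.27) and the filter of 1 CPM in 3 libraries (0.34). Unc5b, known from endothelial tip cells as well as neurons, had 4.72, 3.25 and 2.11 CPM in IP, against 8.61, 9.88 and 11.3 CPM in input (log2 fold change -1.56, SE 0.29, adjusted p = 0.00106). Unc5d, a receptor of FLRT2 known from upper-layer cortical neurons, had 60.1, 36.6 and 50.4 CPM in IP, against 92.8, 80.4 and 94.4 CPM in input. Its IP libraries all lay below its input libraries (log2 fold change -0.86, SE 0.16, adjusted p = 0.000943). The layer 4 and layer 2/3 markers summed to 397 to 464 CPM in IP and 722 to 854 CPM in input beside it, and their part in the Unc5d difference was not tested. Unc5c averaged 47.5 ± 7.28 CPM in IP and 69.0 ± 3.44 CPM in input (log2 fold change -0.54, adjusted p = 0.00409), a change that was 0.02 with the length and GC offset. Dcc, the attractive netrin receptor, averaged 47.3 ± 6.79 CPM in IP and 38.6 ± 3.23 CPM in input, with no overlap, and did not pass (log2 fold change 0.29, adjusted p = 0.0870), while the offset gave 0.70 with a call.

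Paralogs were compared within each library, where library scaling cancels. The log2 ratio of Robo1 to Robo2 was -0.73 ± 0.29 in IP and -1.31 ± 0.05 in input (SD, n = 3 each), a difference of 0.58 (two-sided exact permutation p = 0.1, the smallest that 3 against 3 libraries can give). The ratio of Nrp1 to Nrp2 was 0.15 ± 0.52 in IP and -0.55 ± 0.26 in input (difference 0.70, exact permutation p = 0.2), and that of Ntng1 to Ntng2 was 3.01 ± 0.54 in IP and 2.21 ± 0.32 in input (difference 0.80, exact permutation p = 0.2). The ratio of Plxna1 to Plxna4 was -1.68 ± 0.43 in IP and -1.60 ± 0.09 in input, with overlapping groups (difference -0.08, exact permutation p = 1.0). None could pass a threshold of 0.05 at this number of libraries.

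Levels were ranked across members only after division by exon length, in CPM per kilobase of annotated exon. In IP libraries the highest were Sema7a (mean 24.0, range 18.1 to 29.0 CPM per kilobase), Efnb3 (20.9, range 17.97 to 23.5), Efna5 (19.0, range 16.6 to 21.7), Epha4 (16.9, range 13.6 to 23.4) and Plxna4 (14.2, range 12.3 to 17.1), and the ranges of neighbours in this order overlapped. In input libraries the order began with Efna5 (27.6 CPM per kilobase), Epha4 (25.2), Sema7a (22.2), Efnb3 (12.96) and Plxna4 (12.7), so the same 5 genes led both groups. The called members with the largest rises ranked lower: Nrp1 stood at 4.73 CPM per kilobase in IP, rank 23 against rank 36 in input, and Sema5b at 3.98, rank 25 against rank 41 in input.

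**Figure D2:**
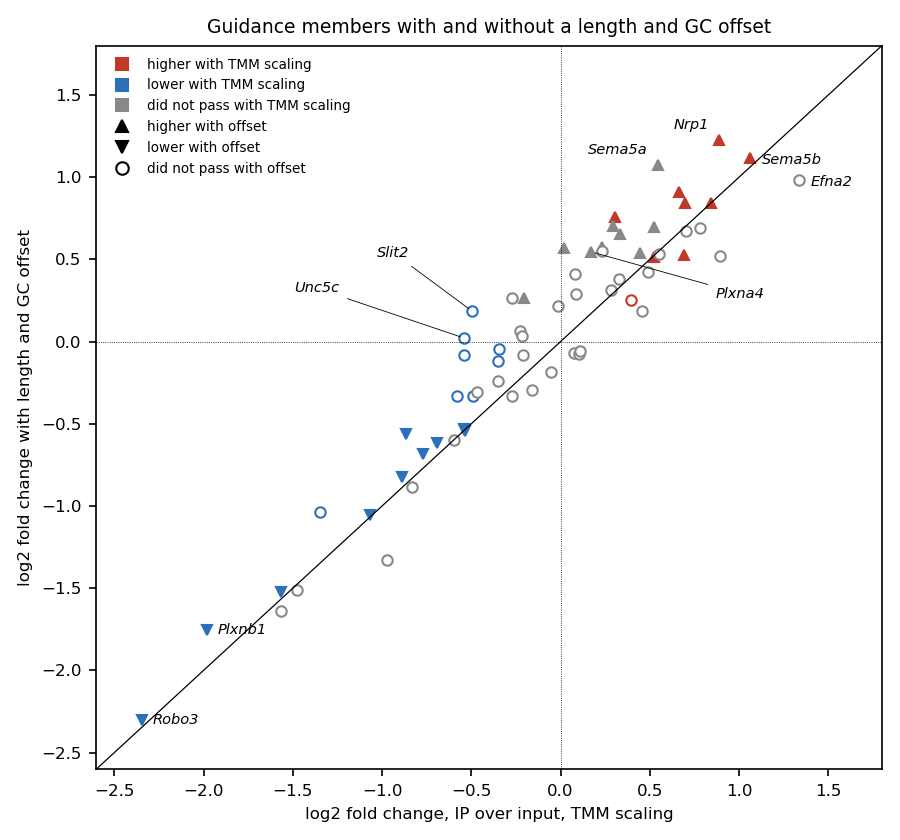
Log2 fold change (IP over input) with the exon length and GC offset (vertical axis) against that with TMM scaling (horizontal axis) for each tested guidance gene; colour gives the TMM call, shape the offset call, and the line marks equal values. Slit2 and Unc5c lie left of 0 and above 0, Sema5a and Nrp1 lie above the line, and Plxnb3, at -5.84, is outside the plotted range.

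Long genes tended to be lower in IP across the transcriptome. Across 14494 genes with an annotated length, the Spearman correlation between log2 fold change and exon length was -0.24, and across the 67 tested members it was -0.11, given as descriptions across genes that share the same libraries. The members had a median exon length of 7002 bases against 4437 bases for all tested genes. At 10 kb of exon or more, a limit chosen after the values were seen, 148 of 1410 genes were higher and 608 lower, with a median of -0.28, while 1 of 13 members was higher and 4 were lower, with a median of 0.02. Under 10 kb, 3210 of 13084 genes were higher and 2407 lower, with a median of 0.08. Of the 54 members under 10 kb, 8 were higher and 15 lower, with a median of -0.11. The members thus did not follow the order of all genes by length.

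IP replicate 2 stood apart for several members. It was the highest of the 6 libraries for Sema5a, Efna2, Epha6, Epha7 and Plxna4, at 201, 10.2, 66.1, 139 and 242 CPM, and the highest IP library for Epha4. It was also the highest of the 6 for the called Nrp1, Slit1 and Unc5a, at 55.4, 21.3 and 55.1 CPM, and for others such as Dcc and Epha5. The members named here are a selection, and the share over all members or all genes was not counted. A list of 6 dentate granule cell markers, added after these values were seen, summed to 92.8, 249 and 78.7 CPM in IP replicates 1 to 3, against 46.3, 57.4 and 33.6 CPM in input replicates 1 to 3. Most of each sum was Prox1, at 78.1, 192 and 69.3 CPM in IP replicates 1 to 3 and 39.6, 49.7 and 29.5 CPM in input replicates 1 to 3. Each gene of the list was highest in IP replicate 2. The part of these markers in those members was not tested.

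Overlapping annotation limits the counting of 6 tested members. At least 5% of the exon bases of Epha1, Efna3, Ntn5, Ntng2, Plxna1 and Sema4c are shared with another gene, and the strand setting of the counting is not given in the sources used here. None of the 6 was called, and the values of these genes are uncertain to that extent.

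Genes that act with the guidance receptors were mixed as well. Of 50 genes in 5 lists of partners and effectors, 49 were tested, 12 were higher in IP and 11 lower, with a median log2 fold change of 0.10. With the length and GC offset 18 were higher and 7 lower (72.0% of calls higher, against 52.2%), and with total gene counts 16 were higher and 8 lower. Over all genes the same settings gave 3896 higher and 3449 lower calls with the offset, and 4259 higher and 3438 lower with total gene counts, against 3523 higher and 3864 lower with TMM.

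The collapsin response mediator proteins, cytoplasmic relays of semaphorin signals to microtubules, had 3 of 5 members higher and none lower. Dpysl5 had 63.9, 56.8 and 54.0 CPM in IP, against 35.9, 23.9 and 26.7 CPM in input, with no overlap (log2 fold change 1.01, adjusted p = 0.000258). Dpysl3 and Crmp1 were 0.52 and 0.38 higher on the same scale. Dpysl2 averaged 627 CPM in IP and 619 CPM in input and did not pass.

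Among neogenin and the repulsive guidance molecules, the ligand Rgmb had 69.0, 75.4 and 66.6 CPM in IP, against 34.4, 35.7 and 42.7 CPM in input (log2 fold change 0.90, adjusted p = 8.84e-05). Its receptor Neo1, a relative of DCC, had 64.0, 62.3 and 65.8 CPM in IP, against 110, 122 and 124 CPM in input (log2 fold change -0.89, adjusted p = 1.85e-05). The ligand and the receptor thus lay on opposite sides, with no overlap in either. Rgma and Draxin did not pass.

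Of the 6 L1 and contactin co-receptors, adhesion molecules that join semaphorin receptors, none was higher and Cntn2 and Nrcam were lower. Cntn2, known from myelinated axons and oligodendrocytes, averaged 22.2 CPM in IP and 45.5 CPM in input (log2 fold change -1.03, adjusted p = 0.000512). Nrcam changed by -0.32, which turned to 0.09 with the offset. Of the FLRT and NGL partners, Flrt3, a Robo1 partner, and Lrrc4b were 0.54 and 0.40 higher, and Flrt2, the Unc5d ligand, was lower at 93.0 CPM in IP against 135 CPM in input (log2 fold change -0.54, adjusted p = 0.00115). Lrrc4c and Lrrc4, the partners of Ntng1 and Ntng2, averaged 413 and 93.9 CPM in IP, against 425 and 97.4 CPM in input, and did not pass. With the offset, Flrt2 and Lrrc4b did not pass.

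Of 28 tested cytoplasmic effectors, 6 were higher and 7 lower. Chn1 and Chn2, the chimaerins that relay Eph signals to Rac, were both higher: Chn1 averaged 1959 CPM in IP and 1280 CPM in input (log2 fold change 0.61), and Chn2 averaged 72.3 CPM in IP and 34.8 CPM in input (1.05). Cdk5, Fyn, Rasa1 and Mical2 were higher by 0.72, 0.52, 0.39 and 0.36. Dock1, a Rac activator downstream of DCC, had the largest fall, with 2.19, 2.09 and 2.58 CPM in IP, against 19.2, 14.7 and 17.9 CPM in input (log2 fold change -2.92, adjusted p = 9.74e-07). Ablim1, Farp1, Mical3, Trio, Ngef and Srgap2 were lower at -1.30, -0.92, -0.90, -0.48, -0.35 and -0.35, of which Trio and Srgap2 turned to 0.12 and 0.01 with the offset. Fes had too few reads and was not tested.

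**Figure D3:**
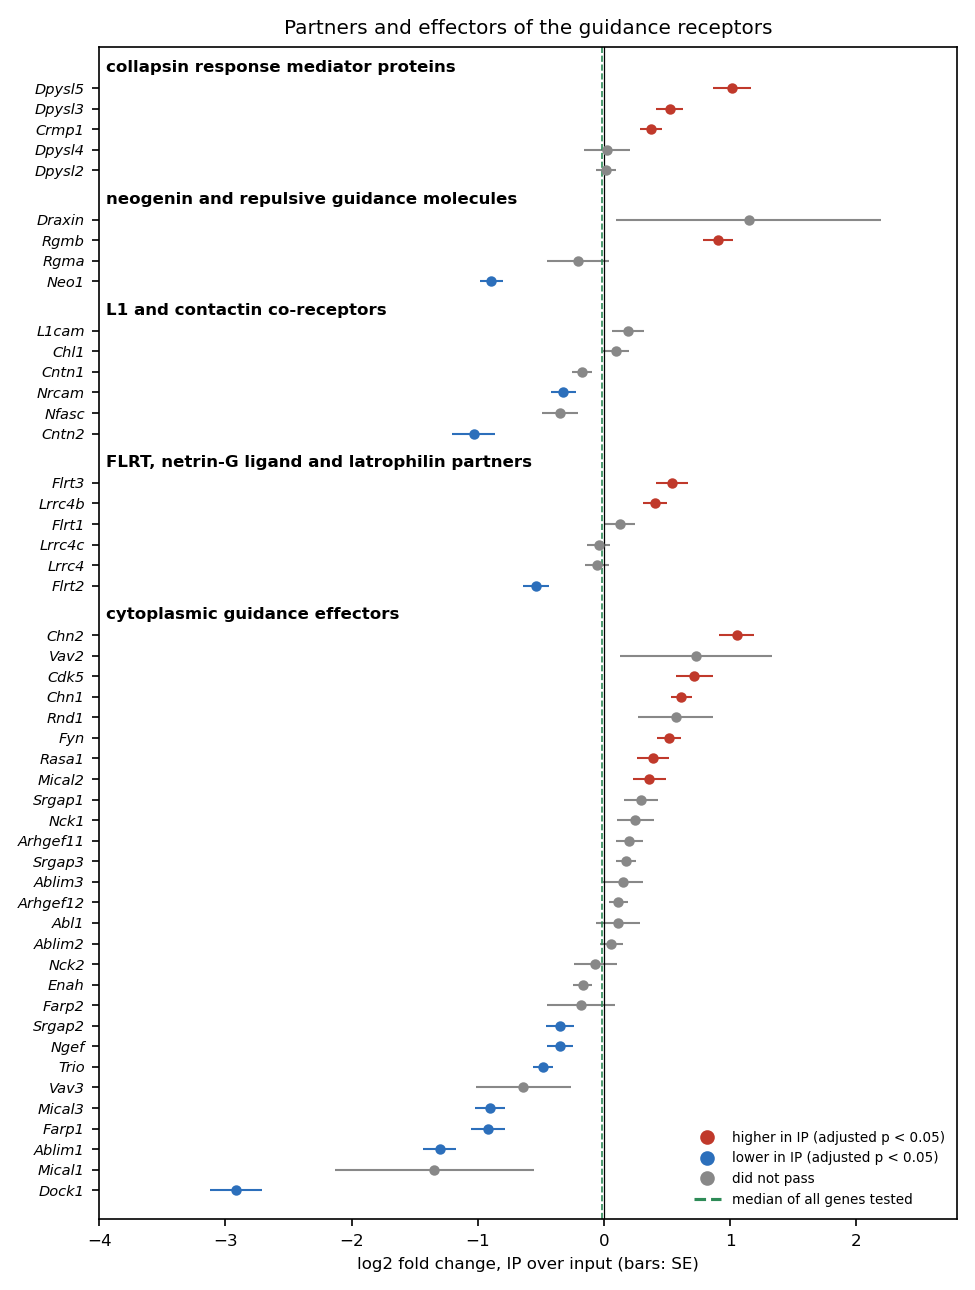
Log2 fold change (IP over input, horizontal axis) of the 49 tested partner and effector genes in 5 lists, with SE bars and a dashed line at the median of all genes tested. Dock1 lies farthest to the left at -2.92, and Chn2 and Dpysl5 are the called genes farthest to the right at 1.05 and 1.01.

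The calls that held under all 15 alternative settings, a grouping made after the values were seen, were 7 higher members (Efnb2, Efnb3, Nrp1, Ntng1, Sema4f, Sema5b and Slit1) and 8 lower members (Efna5, Plxnb1, Plxnb3, Plxnd1, Robo3, Sema4b, Unc5b and Unc5d). They make up 15 of the 28 calls. The other 13 calls were lost or turned in sign under at least 1 setting. How many of the 7387 called genes held under the same settings was not counted. Whether guidance calls were more or less stable than calls in general is therefore not known.

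**Figure D4:**
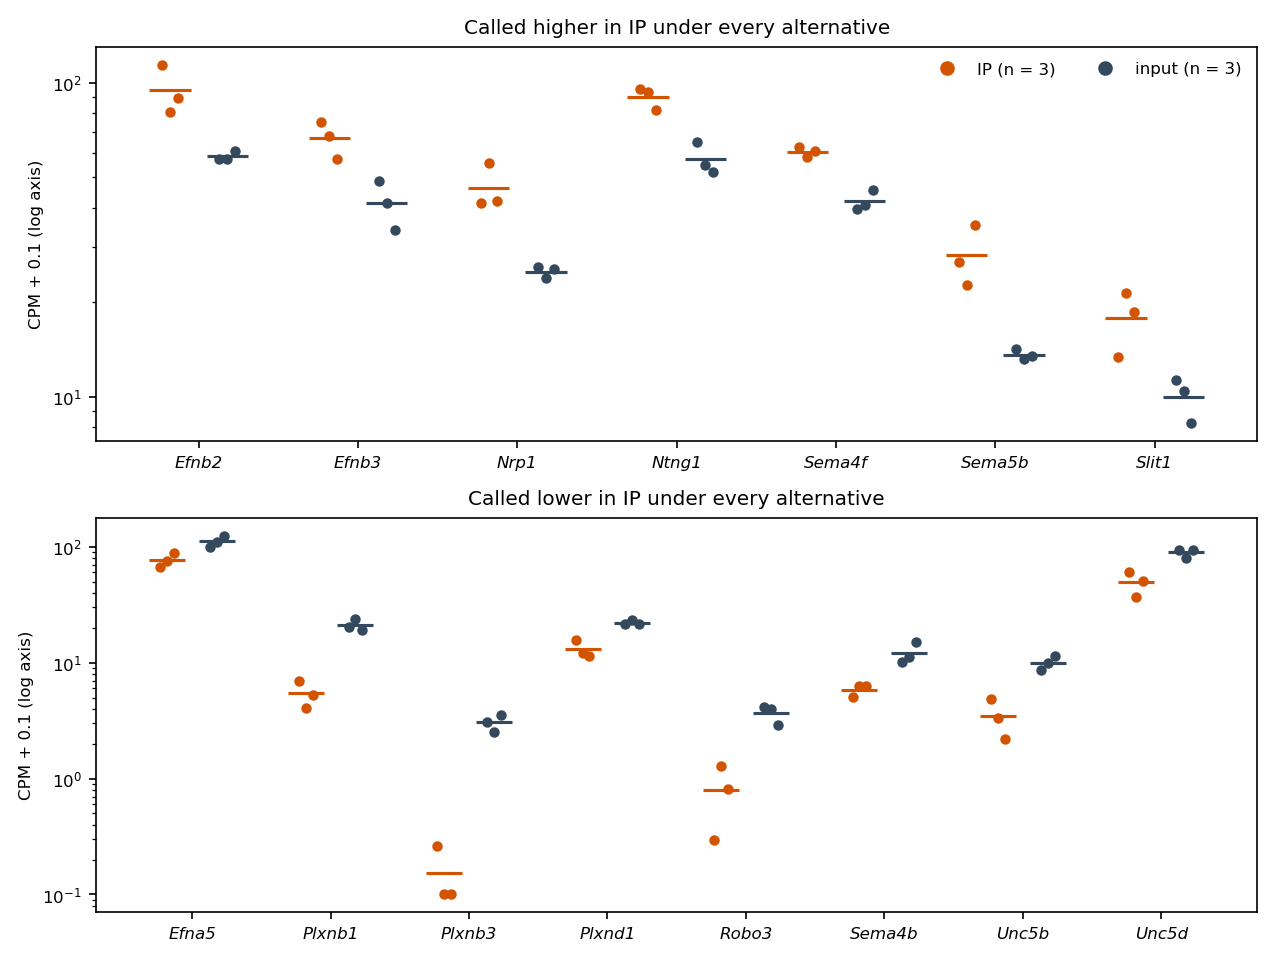
Level in each library (CPM plus 0.1, logarithmic vertical axis) of the 7 higher and 8 lower guidance genes whose calls held under every alternative, with the 3 IP libraries left of the 3 input libraries for each gene and a bar at each group's mean. The IP points lie above all input points for the 7 genes of the upper panel and below them for the 8 genes of the lower panel, and the Plxnb3 IP points at the bottom are 9, 0 and 0 reads.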

How the data were processed

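RNA of cerebral cortex was sequenced in 3 IP and 3 input libraries, named by the titles. As deposited by the authors, the values are unnormalized read counts for each gene symbol. Per the submitters' processing notes, the authors used STAR 2.0.0e, the mouse build mm10 and HTSeq; the version of HTSeq, its strand setting and its annotation were not given in the sources used here. Rows without a gene were dropped before scaling and testing: reads outside genes made up 8.78% ± 0.162 of listed reads in IP and 17.2% ± 0.722 in input, ambiguous reads 1.82% ± 0.0772 in IP and 8.99% ± 0.856 in input, and reads aligned to several places 34.4% ± 1.43 in IP and 22.4% ± 1.21 in input (SD, n = 3 each).

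Counts were filtered with filterByExpr, scaled by TMM and tested two-sided with edgeR 4.0.16 (quasi-likelihood, Benjamini-Hochberg over 16506 genes) in R 4.3.3; CPM are on the TMM-scaled library. Alternatives used DESeq2 1.42.0, limma 3.58.1 (voom), other scalings, filters and offsets, a replicate block and leaving out each library. The offset was a loess fit of the log ratio (span 0.5) on exon length and GC content from GENCODE M21 on the same build, known for 87.81% of tested genes; all 71 members matched it by symbol. The edgeR test alone was also run on simulated counts with a fixed spread between libraries. That run does not show how the test behaves at the spread of these data. Intervals and floors cover counting error only.

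The replicate number also names the sequencing lane in both groups. Deviations from the group means correlated at 0.0872, 0.0608 and 0.0431 between libraries of the same number and at -0.0566 to 0.00144 otherwise. All IP libraries carry 1 index and all input libraries another, so index and group cannot be told apart. Replicates differed by more than sampling noise (chi-square per degree of freedom 22.0 to 65.2).

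The members and lists were chosen with earlier results of these data known. Values were given in full for, in each family, the called members that changed most in each direction and the most abundant member.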

Additional observations from a re-analysis of the deposited data

How the results depend on the processing

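At 3 libraries a group, small changes lie near the threshold. Leaving out 1 library gave 7 to 12 higher and 9 to 18 lower members; the lowest lower counts were 12 without input replicate 2 and 9 without input replicate 3. It gave 10 to 13 higher and 8 to 13 lower pathway genes. The replicate block gave 10 higher and 20 lower members, kept all 28 calls, and gave 13 higher and 12 lower pathway genes. Total gene counts gave 14 higher members. The length and GC offset gave 17 higher and 11 lower members and 7 lower pathway genes, and with the replicate block 19 higher and 12 lower members and 19 higher pathway genes. DESeq2, limma-voom, DESeq2's size factors in edgeR, no filter and a filter of 1 CPM in 3 libraries kept both member counts within 1.5 times. The cause of these shifts was not tested.

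Signs turned in at least 1 setting for 2 called members, Slit2 and Unc5c, and for 11 that did not pass, and 14 members that did not pass were called in at least 1 setting. With the offset, and then with the offset and replicate block, log2 fold changes were -0.069 and -0.12 for Efnb1, 0.066 and 0.076 for Epha3, 0.27 and 0.27 for Plxna2, 0.26 and 0.25 for Robo2, 0.22 and 0.19 for Sema3c, 0.036 and 0.029 for Sema6a, -0.074 and -0.085 for Sema6b, -0.057 and -0.073 for Sema7a, 0.19 and 0.19 for Slit2, and 0.021 and 0.0098 for Unc5c. Epha5 was -0.0036 with DESeq2's size factors and -0.028 with the 1 CPM filter, Ntng2 was 0.036 and Sema3c 0.076 with total gene counts, and Sema3c was 0.0028 with no filter. Leaving out 1 library gave ranges of -0.26 to 0.27 for Efnb1, -0.033 to 0.076 for Epha5, -0.10 to 0.30 for Ephb2, -0.46 to 0.13 for Ntng2, -0.19 to 0.095 for Sema3c, -0.063 to 0.25 for Sema6b, -0.042 to 0.28 for Sema7a and, for the log2 ratio of Plxna1 to Plxna4, -0.22 to 0.17. The ratio differences ranged from 0.44 to 0.96 for Nrp1 to Nrp2, 0.57 to 1.10 for Ntng1 to Ntng2 and 0.49 to 0.75 for Robo1 to Robo2.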
